A study of Homo sapiens with 8 samples.

Results

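The effect of DDX3X siRNA on polysomal RNA was measured in HT-144 cells, an established line grown from a human melanoma. It was described by comparing 2 polysomal libraries made after DDX3X siRNA with 2 polysomal libraries made after control siRNA, 4 of the 8 libraries of the series. The other 4 were total RNA libraries of cells given either siRNA, 2 for each. Expression was given as FPKM (fragment numbers scaled by transcript length and by the mapped total of the library) for single transcript isoforms, and 15531 of 65535 isoforms were tested, those that reached 1 FPKM in 2 or more of the 8 libraries. All libraries came from 1 cell line and 1 control siRNA, and the labels give neither the siRNA sequences nor the time after delivery. Whether replicates were separate cultures is not stated in the labels, so the p-values below reflect differences between libraries that may be technical only.

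DDX3X is an X-linked DEAD-box RNA helicase, an enzyme that uses ATP to open structured RNA. It is known for its part in translation initiation, above all on mRNAs with structured leader sequences, and it binds components of the initiation machinery. Polysomes are mRNAs that carry several ribosomes at once and sediment far into a sucrose gradient. The amount of an mRNA in that fraction therefore depends both on how much of the mRNA the cells hold and on how many ribosomes it carries. FPKM is relative to its own library, so FPKM values of polysomal and total RNA do not compare amounts between the fractions. In bulk libraries, fewer cells with a transcript and less of it per cell cannot be told apart.

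The table lists isoforms by UCSC-style identifiers, which the files do not pair with gene names. Reference gene tables matched 1 identifier, an isoform below the filter. The level of DDX3X itself, melanocyte markers and gene pathways were therefore not analysed here, and the knockdown and the cell identity were not checked. No sequences could be assigned to isoforms for the same reason. Identifiers are printed for 4 isoforms, 2 that rose and 2 that fell, and other isoforms are described by group.

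The 4 polysomal libraries were unequal before any comparison. A single isoform took 41.5% and 4.88% of all FPKM in control replicates 1 and 2, and 65.6% and 37.7% in DDX3X replicates 1 and 2. Its level ran from 31908 FPKM in control replicate 2 to 3600000 FPKM in DDX3X replicate 1. The median log2(FPKM + 1) of tested isoforms was 2.27 and 2.17 in the controls and 2.11 and 2.30 after DDX3X siRNA, so the DDX3X replicates lay on either side of the controls. The median absolute log2 difference was 0.18 between the control replicates and 0.26 between the DDX3X replicates. Across the siRNAs, the 4 pairs of libraries gave 0.31, 0.24, 0.29 and 0.26. Of these, 1 pair across the siRNAs (control replicate 1 with DDX3X replicate 2) and, by a small margin, another (control replicate 2 with DDX3X replicate 2) differed less than the DDX3X replicates did from each other. The pairs with DDX3X replicate 1 gave the higher values. Over all tested isoforms, then, the typical difference across the siRNAs was close to that between the DDX3X replicates.

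**Figure D1:**
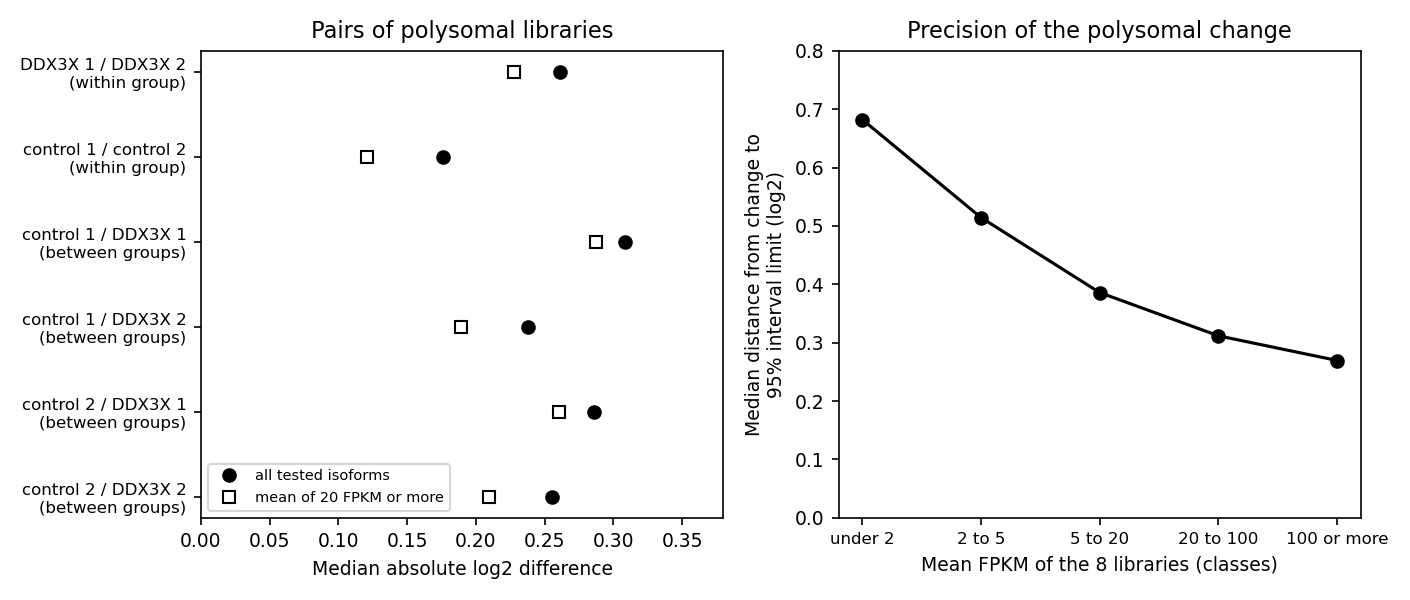
Left, the median absolute log2 difference (x axis) for each of the 6 pairs of polysomal libraries (y axis), for all tested isoforms (filled) and those with a mean of 20 FPKM or more (open). Right, the median distance from the log2 change to its 95% limit (y axis) by mean FPKM (x axis), which falls from 0.68 under 2 FPKM to 0.27 at 100 FPKM or more.

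A small share of isoforms passed the threshold for a change on polysomes with DDX3X siRNA. At an adjusted p under 0.05 (limma on log2(FPKM + 1), Benjamini and Hochberg over all tested isoforms), 26 rose, 0.167% of those tested, and 19 fell, 0.122%. Together these 45 made up 0.29%. At an unadjusted p under 0.05 (limma) there were 2407 of the 15531 tested, 1162 higher and 1245 lower, so the 45 do not bound how many changed. At an adjusted p under 0.1 the counts were 171 and 178, and at 0.2 they were 614 and 623, so rises and falls stayed close in number as the threshold was loosened. The middle of the distribution lay near 0, with a median log2 change of -0.02 and quartiles of -0.24 and 0.20. FPKM is scaled to the mapped total of each library, which favours such a balance. A general rise or fall of polysomal RNA could not be seen in these values. The replicates of the siRNAs did not overlap for 45.6% of tested isoforms, 22.1% higher and 23.5% lower with DDX3X siRNA. With 2 libraries per group such separation is frequent by order alone, so this share is not a count of changed isoforms.

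The count depended strongly on single libraries and on how the spread was modelled. Without any 1 of the 7 libraries other than DDX3X polysomal replicate 2 it was 6 to 15, and without that library 59 rose and 189 fell. With no intensity trend, with the replicate number as a block or with the 4 polysomal libraries alone, 1 rose and 5 fell. Rises made up 57.8% of calls without scaling and 46.05% with median-of-ratios scaling, which called 99 rises and 116 falls. After quantile normalization 77 rose and 58 fell.

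Among called isoforms with at least 1 FPKM in all 8 libraries, the most abundant one to rise was uc001whc.4. Its polysomal level was 170 and 146 FPKM in the control replicates and 267 and 287 FPKM in the DDX3X replicates. Both DDX3X libraries lay above both controls, and the means were 158 ± 16.7 and 277 ± 14.6 FPKM (SD, n = 2 each). The log2 change was 0.81 ± 0.10 (SE; limma adjusted p = 0.0489). In total RNA uc001whc.4 stood at 175 and 181 FPKM with control and 233 and 257 FPKM with DDX3X siRNA, again without overlap, a log2 change of 0.46 that did not pass (limma adjusted p = 0.0912). The change on polysomes exceeded that in total RNA by 0.35 on the log2 scale, with a 95% interval of 0.00 to 0.70 (limma adjusted p = 0.665).

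The largest called rise under the same limit was that of uc004bov.4. It was a low isoform in control polysomes, at 3.80 and 3.27 FPKM, and reached 13.1 and 15.0 FPKM after DDX3X siRNA. The ratio of the means was 3.97, and the log2 change was 1.73 ± 0.15 (SE; limma adjusted p = 0.0232). Each of the 4 pairings of a DDX3X with a control library gave a log2 change between 1.55 and 1.91. Total RNA gave 4.63 and 5.11 FPKM with control and 15.0 and 18.7 FPKM with DDX3X siRNA, so the FPKM values were close to those on polysomes under either siRNA. The change in total RNA was 1.60 (limma adjusted p = 0.0195), and the difference between the fractions had a 95% interval of -0.38 to 0.64 on the log2 scale.

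The most abundant isoform with a called fall and at least 1 FPKM in all 8 libraries was uc001yku.4. It stood at 457 and 379 FPKM in control polysomes and at 183 and 210 FPKM after DDX3X siRNA. The DDX3X mean was 47.0% of the control mean, and the log2 change was -1.08 ± 0.12 (SE; limma adjusted p = 0.0391). Total RNA gave 327 and 301 FPKM with control and 195 and 210 FPKM with DDX3X siRNA. In FPKM the fractions overlapped after DDX3X siRNA, while both control polysomal libraries lay above both control total RNA libraries. The change in total RNA, -0.63, did not pass (limma adjusted p = 0.0715), and the difference between the fractions was -0.46 (95% interval -0.87 to -0.04, limma adjusted p = 0.632).

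The largest called fall under that limit was that of uc003upi.2. Its control polysomal level was 117 and 144 FPKM, and its level after DDX3X siRNA was 53.5 and 57.2 FPKM. The log2 change was -1.22 ± 0.14 (SE; limma adjusted p = 0.0391). Total RNA of the same isoform stood at 137 and 154 FPKM with control and, higher, at 184 and 220 FPKM with DDX3X siRNA. The replicates did not overlap in either fraction, and the direction was opposite. The difference between the fractions, -1.69 with a 95% interval of -2.15 to -1.22 on the log2 scale, missed the threshold (limma adjusted p = 0.0595).

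**Figure D2:**
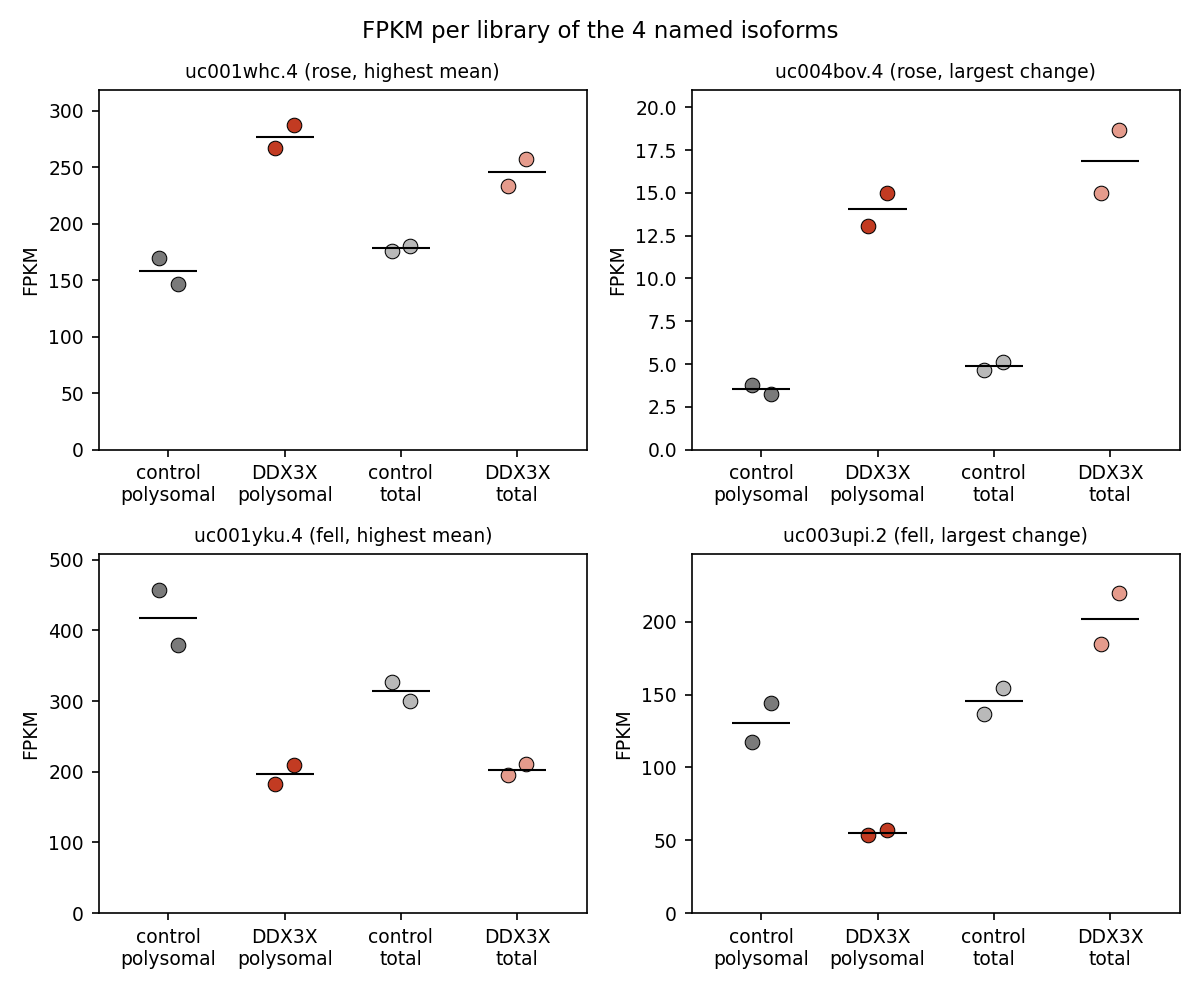
FPKM (y axis, from 0) of 4 isoforms in each group (x axis), with 1 point per library and a line at the mean of 2. In polysomal RNA both DDX3X points lie above both control points for uc001whc.4 and uc004bov.4 and below them for uc001yku.4 and uc003upi.2, and for uc003upi.2 the total RNA points go the other way.

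These 4 passed the threshold in only some of the 19 other settings tried. The isoform uc004bov.4 passed in 10, uc003upi.2 in 9, uc001yku.4 in 8 and uc001whc.4 in 7. Over these settings the log2 change of uc004bov.4 lay between 1.16, with a pseudocount of 5 FPKM, and 1.96, with 0.1 FPKM. That of uc003upi.2 lay between -1.36 and -1.07, that of uc001yku.4 between -1.22 and -0.95 and that of uc001whc.4 between 0.70 and 0.92.

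Of the 45 called isoforms, 36 were above 0 in every library. The 25 that rose among them had log2 changes of 0.71 to 2.54 with a median of 1.16, and 16 were above 1. Their control polysomal means ran from 0.0754 to 158 FPKM with a median of 17.7 FPKM, and their DDX3X means from 3.08 to 277 FPKM with a median of 32.8 FPKM. The median ratio of DDX3X to control mean was 2.32. The change of 2.54 and the control mean of 0.0754 FPKM came from the same isoform. It was near the floor in control polysomes, at 0.15 and 0.000335 FPKM, and the next largest change was 1.73. The 11 that fell had changes of -0.76 to -1.22 with a median of -0.97. They were more abundant in control polysomes, with means of 20.8 to 418 FPKM (median 56.0 FPKM). Their DDX3X means were 41.9% to 57.6% of the control means, with a median of 26.3 FPKM, below the 32.8 FPKM of the rising ones. No falling isoform among these 11 had a control mean as low as the median of the 25 rising ones. Picking rises favours low control values and picking falls favours high ones, so the order in control polysomes is in part set by the selection. The median over all tested isoforms, as a mean of the 4 polysomal libraries, was 3.70 FPKM. None of these 36 isoforms was called with no intensity trend or with the polysomal libraries alone. With the replicate number as a block 1 was called, with no filter 17 and after median-of-ratios scaling 31. All 36 were called after leaving out isoforms listed at 0. Leaving out a single library removed most of these calls, except for DDX3X polysomal replicate 2.

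**Figure D3:**
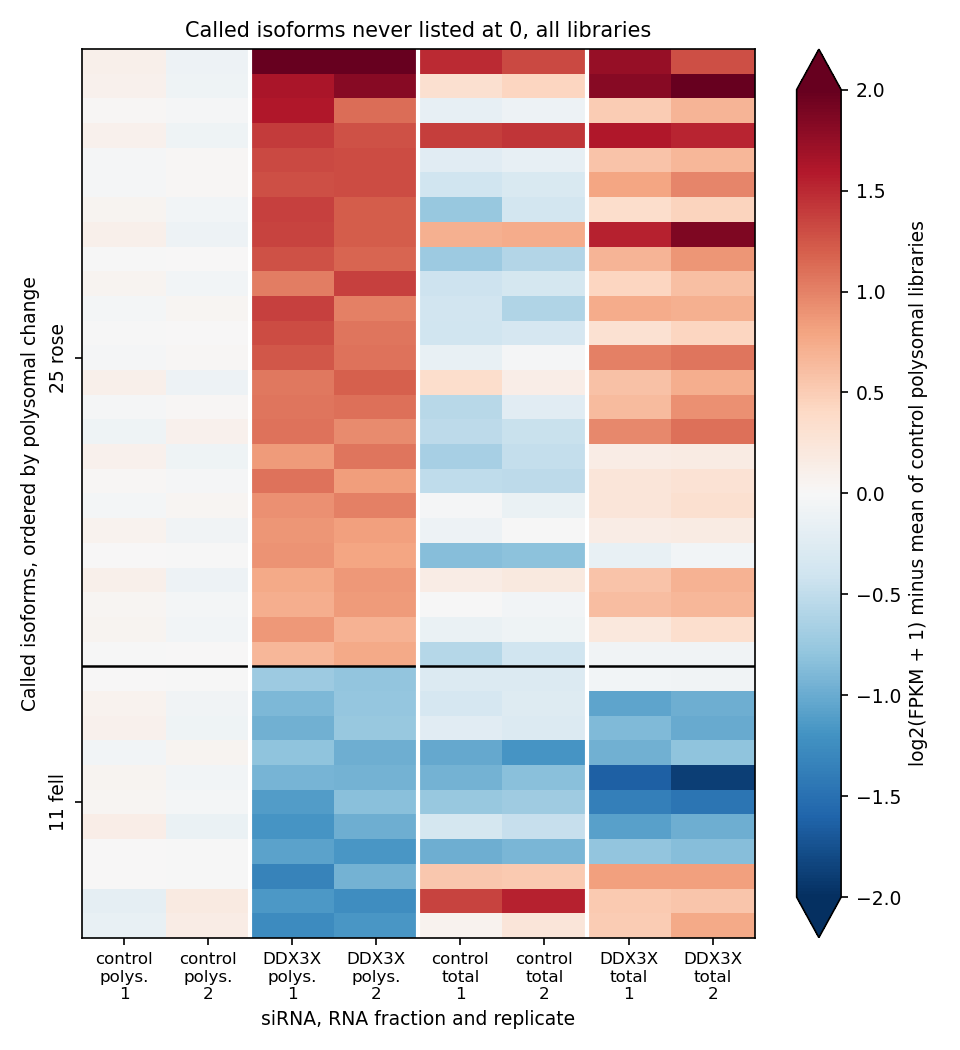
Each row is 1 of the 36 called isoforms above 0 in every library, each column a library, and the colour is log2(FPKM + 1) minus the mean of the control polysomal libraries, limited to -2 and 2. The 25 rises and 11 falls show in both DDX3X polysomal columns, and the lowest rows hold falls whose DDX3X total RNA columns are above the control polysomal level. That colour alone does not mean a rise in total RNA, which shows only against the control total RNA columns.

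The other 9 called isoforms were at 0 in some library. Of these, 8 fell, with mean control levels of 3.25 to 1029 FPKM, and were under 0.001 FPKM in both DDX3X polysomal libraries. In total RNA, 5 of these 8 had at least 1 FPKM in all 4 libraries and 3 were under 0.001 FPKM in all 4. The other called isoform rose. It was at 0 in 6 libraries and at 187872 and 96009 FPKM in the DDX3X polysomal libraries. An exact 0 in such a table can be a failed estimate, so these 9 are listed levels and no fold is given. Over all tested isoforms, 20 were under 0.001 FPKM in both DDX3X and at 1 FPKM or more in both control polysomal libraries, and 8 showed the converse. In total RNA the same counts were 23 and 41. More isoforms were listed at 0 in DDX3X polysomal replicate 1, 158, than in the other polysomal libraries, 94 to 100, and the part of this in the counts was not tested.

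A set of very abundant isoforms had lower values together with DDX3X siRNA, although none of them passed the threshold in polysomal RNA. Of the 159 isoforms above 0 in every library with a polysomal mean of at least 400 FPKM, 39 had identifiers beginning with uc003n, a series that held 1.43% of tested isoforms. This set was chosen after its values were seen, so it is given as a description, and the set as a whole was not tested. The limma results given for it are those of its single isoforms. They are not separate support for the shift, since the same values picked the set and isoforms of 1 gene depend on each other. Its median level was 978 and 1020 FPKM in the control polysomal replicates and 648 and 565 FPKM in the DDX3X replicates. Both DDX3X libraries lay below both controls for 38 of the 39, against 23.5% of all tested isoforms, and the median log2 change was -0.67. The changes were narrow in range, from -0.78 at the 10th to -0.49 at the 90th percentile of the set. The other 120 isoforms of at least 400 FPKM had a median of -0.05, with 43 lower and 29 higher without overlap.

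The values of the 39 isoforms were lower in total RNA too. Their median levels were 534 and 586 FPKM with control and 376 and 314 FPKM with DDX3X siRNA, and the median log2 change was -0.68, with all 39 below 0. The median difference between the fractions was 0.01 on the log2 scale, and 0 of the 39 passed the limma test of that difference. In total RNA 3 of the 39 passed the threshold, all of them lower (limma adjusted p under 0.05), and in polysomal RNA 0 passed. The smallest limma adjusted p in polysomal RNA was 0.053, and 24 of the 39 were under 0.1, against 349 of the 15531 tested. In the 120 others of that abundance, 3 lower and 2 higher isoforms were under 0.1. With isoforms of at least 5 FPKM in at least 2 libraries, 20 of the 39 were called, where 247 of all 7573 tested were. With robust eBayes 9 were called, where 105 of 15531 were. Without isoforms listed at 0 the counts were 4 of the 39 and 79 of 15315. After median-of-ratios scaling they were 1 of the 39 and 215 of 15531. The median change lay between -0.74 and -0.53 in all settings, the least after quantile normalization. Isoforms of the same identifier series under 100 FPKM and above 0 in every library, 168 in number, had a median of -0.02, the value for all tested isoforms. Those between 100 and 400 FPKM and above 0 in every library, 12 in number, were split. Their median was -0.36, with 7 lower and 5 higher without overlap.

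**Figure D4:**
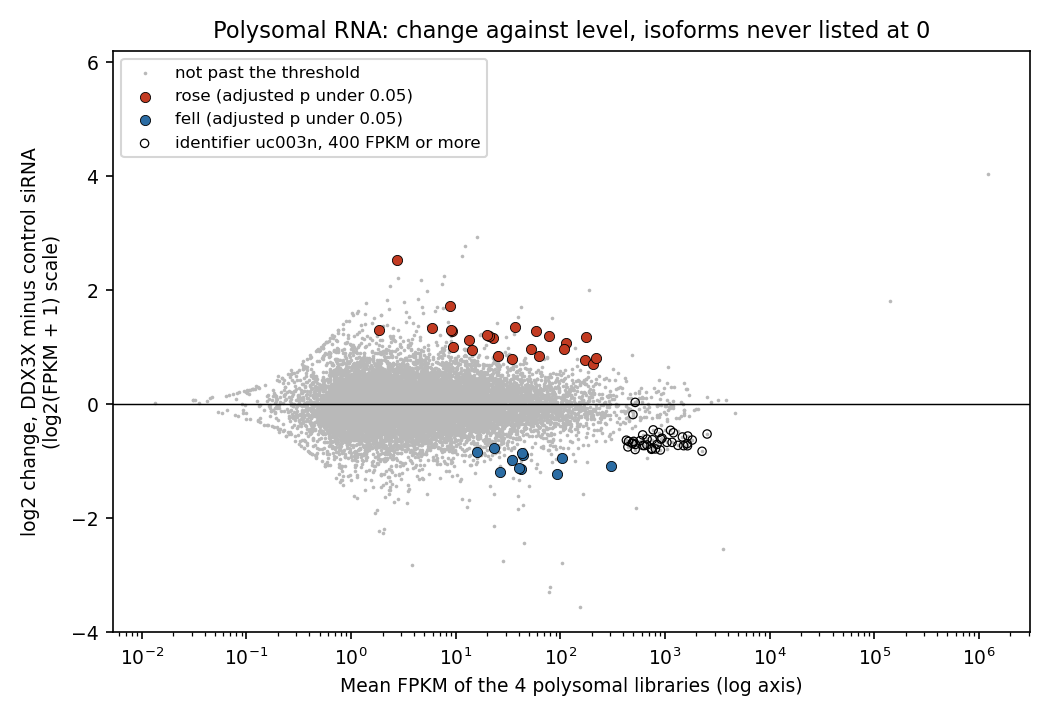
The log2 change with DDX3X siRNA in polysomal RNA (y axis) against the mean FPKM of the 4 polysomal libraries (x axis, log), for isoforms above 0 in every library and with a mean of at least 0.01 FPKM. Called isoforms are coloured, and the 39 open circles at 400 FPKM or more are the isoforms with identifiers beginning with uc003n, of which 37 lie below -0.35.

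The share of isoforms called was larger at higher abundance. Of the 5254 isoforms with a mean under 2 FPKM over the 8 libraries 0.0381% were called, of the 1941 between 20 and 100 FPKM 1.03%, and of the 543 at 100 FPKM or more 1.84%. The share without overlap ran from 40.9% under 2 FPKM to 58.7% at 100 FPKM or more. At 100 FPKM or more 197 isoforms were lower and 122 higher without overlap, while under 2 FPKM the counts were 1104 and 1043. The uc003n series was part of this lean. Among isoforms above 0 in every library with a polysomal mean of at least 100 FPKM, it had 45 lower and 5 higher of 51. Other identifiers had 170 lower and 137 higher of 521. The precision differed in the same order, with a median distance to the 95% limit of 0.68 on the log2 scale under 2 FPKM and 0.27 at 100 FPKM or more.

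With 1 FPKM added to each value, the change of most isoforms was limited to under 2-fold, but this share depended on the amount added. The 95% interval (limma, unadjusted) lay wholly within a 2-fold change on the log2(FPKM + 1) scale for 10921 isoforms, 70.3% of those tested, and within a 1.5-fold change for 4584, 29.5%. The share within 2-fold was 53.0% under 2 FPKM, where the added 1 FPKM shrinks changes, and 84.5% between 5 and 20 FPKM. It fell to 48.2% over all isoforms when 0.1 FPKM was added in place of 1 FPKM and rose to 95.7% with 5 FPKM.

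The polysomal changes were set beside those in total RNA, which come from other libraries. All 25 rising isoforms above 0 in every library had a positive log2 change in total RNA, from 0.11 to 1.60 with a median of 0.73, against a median of 0.04 and 54.6% positive over all tested isoforms. The 95% interval lay above 0 for 22 of the 25, against 11.2% of tested isoforms, and 13 passed the threshold in total RNA, where 0.56% of tested isoforms rose. The test of the difference between the fractions was passed by 0 of the 25 (smallest limma adjusted p = 0.140). At an unadjusted p under 0.05 (limma) there were 11 of the 25, against 1147 of the 15531 tested. The difference includes the polysomal change by which the 25 were picked. The calls in both fractions share each isoform's spread estimate over the 8 libraries.

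The 11 falling isoforms divided in total RNA. Of these, 6 had a negative change, from -0.63 to -0.91, with the 95% interval below 0 in all 6, against 7.14% of tested isoforms, and 3 of them passed in total RNA, where 0.212% fell. The other 5 had a positive change in total RNA, from 0.13 to 0.47, and the interval lay above 0 for 2. At an unadjusted p under 0.05 (limma), 6 of the 11 differed between the fractions, against 1147 of the 15531 tested. Here too the difference includes the polysomal change by which the 11 were picked. Neither this share nor the next is therefore separate support for a difference between the fractions. The difference between the fractions passed for 1 of the 11 (limma adjusted p = 0.0288), where 0.116% of tested isoforms passed. That isoform stood at 56.5 and 55.4 FPKM in control polysomes and 26.2 and 24.5 FPKM after DDX3X siRNA, and at 27.8 and 29.2 FPKM in control and 31.8 and 30.7 FPKM in DDX3X total RNA. It was picked out after its values were seen. The test of its difference passed in 7 of 18 other settings (limma adjusted p from 0.00618 to 0.186) and did not pass in the refit without isoforms listed at 0 (limma adjusted p = 0.110), after either scaling, or without any 1 of the 4 control libraries or the 2 DDX3X total RNA libraries. With no intensity trend (limma adjusted p = 0.125) or with the replicate block (limma adjusted p = 0.0933) the test did not pass either. The polysomal FPKM of this isoform was above its total RNA FPKM with control siRNA and below it with DDX3X siRNA. The fractions did not overlap under either siRNA, but these relative values do not compare amounts between the fractions.

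**Figure D5:**
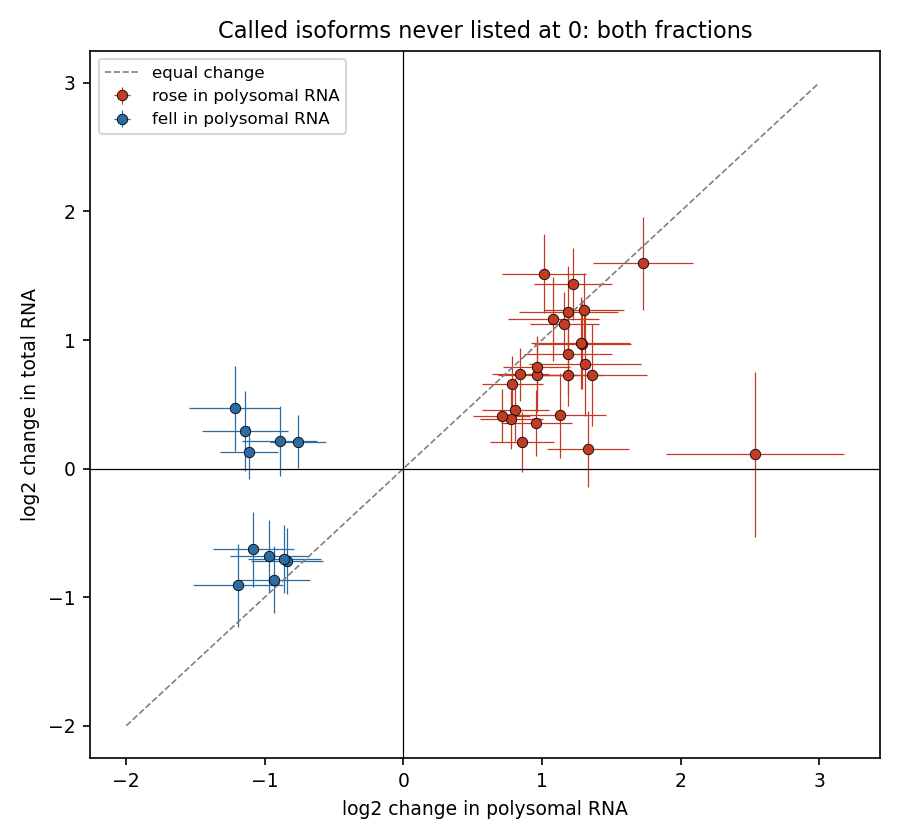
The log2 change with DDX3X siRNA in polysomal RNA (x axis) and total RNA (y axis) of the 36 called isoforms above 0 in every library, with 95% intervals from limma as bars and a dashed line at equal change. All 25 rises lie above 0 in total RNA, while the 11 falls form a group of 6 below 0 and a group of 5 above 0.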

How the data were processed

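Per the labels' protocols, libraries were read from both ends on a NextSeq instrument. The submitters' processing notes name hg38, TopHat2 and Cufflinks 2.2.1, and the authors deposited FPKM values per isoform. Annotation and program settings are not given in the sources used here. Cufflinks divides reads between isoforms by a model, so isoforms of 1 gene depend on each other. The file holds no counts, so depth was unknown and no counting intervals were computed. Of 65535 rows, 21 with another field in all columns were left out, and decimal commas in 5 cells were treated as points.

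Values were tested as log2(FPKM + 1), which understates changes of low isoforms, after the filter of 1 FPKM in 2 or more libraries. The fit was a cell-means model of 4 groups over 8 libraries (limma 3.58.1 in R 4.3.3, with eBayes and an intensity trend), adjusted by Benjamini and Hochberg at 0.05. The code was tested on simulated data. Groups and replicate numbers came from sample titles. Named isoforms were, per direction, those with the highest polysomal mean and the largest change among called isoforms without overlap and at 1 FPKM or more in all 8 libraries. Members, comparisons and lists were chosen with earlier results of these data known. Alternatives covered pseudocount, filter, scaling, variance model, replicate block and left-out libraries. Plots used matplotlib 3.10.9 in Python 3.11.15.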

Additional observations from a re-analysis of the deposited data

Results flagged for a closer look

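The change with DDX3X siRNA differed between polysomal and total RNA for 18 isoforms by the test of the difference itself (limma adjusted p under 0.05), with 5 higher and 13 lower on polysomes relative to total RNA. Of the 18, 6 were also called in polysomal RNA. Of these 6, 5 were at 0 in some library, and the remaining isoform is the falling one whose values in all libraries are given above. The part that values of 0 play in the 18 was not tested apart from a refit without isoforms listed at 0, in which limma called 0 isoforms (1155 at an unadjusted p under 0.05).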

How the results depend on the processing

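The counts of 26 rises and 19 falls in polysomal RNA were 75 and 117 with no filter, 126 and 121 with at least 5 FPKM in at least 2 libraries, 77 and 58 after quantile normalization, 99 and 116 after median-of-ratios scaling and 58 and 47 with robust eBayes. They were 1 and 5 with no intensity trend, with the replicate block and with the polysomal libraries only. With a pseudocount of 5 FPKM, 40 rose and 25 fell. Without isoforms listed at 0, an alternative chosen after the data were seen, 50 rose and 29 fell. Without single libraries, rises ranged from 1 to 59 and falls from 5 to 189, where a lone library was assumed to vary like the other groups. The 18 isoforms whose change differed between fractions became 219 with no filter and 0 without isoforms listed at 0 (1155 at an unadjusted p under 0.05), 12 with the replicate block and 13 to 25 without single libraries. All 45 calls kept their sign wherever they were tested, which their lack of overlap in part fixes. The labels do not say that replicate numbers mark a shared culture, and the replicate differences of the polysomal groups correlated with r = -0.11 over 6427 isoforms, so the numbers were not taken as pairs. The cause of these movements was not tested. With 2 libraries per group and no read counts, depth could not be weighed.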
